A study of Mus musculus with 2 samples.

Results

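The cells described here are the gated tumor phagocytes with the highest summed reads of Ly6c2 and Plac8, 767 of 15319 gated cells, and they are called Ly6c2 Plac8-high cells. A cell passed the gate with at least 3000 unique molecular identifiers (UMIs, each standing for 1 captured RNA molecule), at most 15% mitochondrial UMIs and at least 3 of the 4 phagocyte genes Csf1r, Cd68, Ctss and Fcgr3. It also had to carry at most 1 Cdh5, 2 Rgs5 and 3 Col1a1 UMIs, which are genes of endothelial cells, pericytes and collagen-making cells. Of these cells, the top 5% of both libraries pooled were taken by the score, the summed UMIs of Ly6c2 and Plac8 per 10000 UMIs. The iron-positive library gave 373 of them, out of 7040 gated cells and 13668 deposited barcodes, and the iron-negative library gave 394, out of 8279 gated cells and 10124 deposited barcodes.

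Wild-type C57BL/6 mice carried the subcutaneous tumors, a syngeneic fibrosarcoma, which is a connective tissue tumor of the same strain. The digested tumor cells were passed over a magnetic column, and the iron-positive library holds the eluate, the cells enriched for iron. The iron-negative library holds the flowthrough, and both were made with the 10x Genomics 3′ version 3 chemistry, which counts RNA from its 3′ end. The labels name 1 library per fraction and give neither the number of tumors nor that of mice, so no difference between the fractions has a replicate check, no test was run, and fraction and library cannot be told apart. All intervals given below are exact 95% intervals and cover counting error only.

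Monocytes are made in the bone marrow, circulate in blood and enter inflamed tissue and tumors, where many of them lose monocyte genes and gain macrophage genes. The classical monocyte of the mouse carries the surface antigen Ly6C, which Ly6c2 encodes and the chemokine receptor Ccr2. The nonclassical, patrolling monocyte carries little Ly6C and depends on the transcription factor Nr4a1. Plac8 encodes a small cysteine-rich protein of myeloid and epithelial cells.

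Ly6c2 (ENSMUSG00000022584, protein-coding) lies on the minus strand at chr15:75108158-75111970 of mm10, and Plac8 (ENSMUSG00000029322, protein-coding) on the minus strand at chr5:100553725-100572245. The promoter windows of the 2 genes that chose the cells, from 250 bases before to 50 bases after a RefSeq start site on GRCm38.p6, are shown here because every value below is ordered by them. The Ly6c2 window is chr15:75111922-75112221 and the Plac8 window chr5:100572156-100572455, both minus strand and read 5′ to 3′. Capitals mark each match to GAGGAA on either strand, the core that the myeloid factor PU.1 and other ETS factors recognise.
Ly6c2: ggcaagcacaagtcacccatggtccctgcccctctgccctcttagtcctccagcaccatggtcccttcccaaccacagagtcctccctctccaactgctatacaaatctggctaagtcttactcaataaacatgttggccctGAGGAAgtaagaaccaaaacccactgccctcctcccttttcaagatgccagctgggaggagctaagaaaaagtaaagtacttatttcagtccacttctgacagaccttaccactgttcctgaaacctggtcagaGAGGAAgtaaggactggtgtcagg
Plac8: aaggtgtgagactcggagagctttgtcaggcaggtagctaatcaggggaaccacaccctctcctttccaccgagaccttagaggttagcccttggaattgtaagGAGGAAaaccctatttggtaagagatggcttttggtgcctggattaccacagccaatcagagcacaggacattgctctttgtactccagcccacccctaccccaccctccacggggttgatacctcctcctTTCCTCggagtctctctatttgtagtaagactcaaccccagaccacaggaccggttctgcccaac
Each window held 2 matches to GAGGAA, and neither held TTGCNNAA, a C/EBP motif, both searched on both strands. Of 32851 RefSeq windows of the same length, 28.3% held GAGGAA and 10.8% held TTGCNNAA, so the matches describe these letters and nothing about a factor.

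The score separated the cells by degree and not by a gap. It had a median of 32.7 (range 14.6 to 229) in the Ly6c2 Plac8-high cells of the iron-positive library and 24.8 (14.5 to 149) in those of the iron-negative library. The cut lay at 14.5: the 10 cells just inside ranged from 14.52 to 14.76 and the 10 just outside from 14.39 to 14.51. Within 10% of the cut lay 62 chosen cells and 84 cells that were not chosen. A score of 0 was found in 65.5% of the iron-positive and 63.7% of the iron-negative gated cells.

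Ly6c2 stood at 1449 CPM (UMIs of a gene per 1000000 summed UMIs of a cell set) in the Ly6c2 Plac8-high cells of the iron-positive library and 1109 CPM in those of the iron-negative library, against 22.9 CPM and 17.0 CPM in the other gated phagocytes of the iron-positive and the iron-negative library. Plac8 stood at 2893 CPM in the iron-positive and 2186 CPM in the iron-negative Ly6c2 Plac8-high cells, against 55.6 CPM in the iron-positive and 58.5 CPM in the iron-negative other phagocytes. These values restate the rule. Both genes were detected together in 83.6% of the iron-positive and 84.5% of the iron-negative Ly6c2 Plac8-high cells, and in 5.91% and 6.58% of the other phagocytes of the iron-positive and the iron-negative library. Plac8 without Ly6c2 marked 53 iron-positive and 59 iron-negative Ly6c2 Plac8-high cells, and Ly6c2 without Plac8 marked 8 iron-positive and 2 iron-negative ones.

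Plac8 was not limited to phagocytes. In the iron-positive library it had 725 CPM in 105 collagen cells, 338 CPM in 122 pericytes and 71.7 CPM in 304 endothelial cells, all without Csf1r UMIs, while Ly6c2 had 1.27, 3.96 and 4.82 CPM in the same cells. The near copy Ly6c1 lies close by at chr15:75044018-75048830 and reached 1693 CPM in those endothelial cells, where Ly6c2 remained at 4.82 CPM. Of the 311 windows of 90 bases in the last 400 bases of the longest Ly6c2 transcript, 35 (11.3%) also occurred in Ly6c1 transcripts, so some reads could not be assigned to one gene.

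The shares of these cells in the 2 fractions differed by less than the counting error. The Ly6c2 Plac8-high cells made up 5.30% of the gated phagocytes in the iron-positive library (interval 4.79 to 5.85%, n = 7040 cells) and 4.76% in the iron-negative library (interval 4.31 to 5.24%, n = 8279 cells), a ratio of 1.11 (0.964 to 1.29). The direction turned with the cut, since the top 3% gave a ratio of 1.42 and the top 10% one of 0.961.

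The Ly6c2 Plac8-high cells were shallow, and depth differed between every pair of cell sets compared here. They had a median of 6611 UMIs and 2175 genes in the iron-positive library and 8559.5 UMIs and 2640.5 genes in the iron-negative library, against 11559 and 14486 UMIs in the other phagocytes of the iron-positive and the iron-negative library. Their summed UMIs were 2813629 (iron-positive) and 3608373 (iron-negative). Mitochondrial UMIs had medians of 2.54% (iron-positive) and 2.09% (iron-negative) in them, and 2.92% and 3.29% in the other phagocytes of the iron-positive and the iron-negative library. The libraries shared 85 barcodes, which 4 iron-positive and 2 iron-negative Ly6c2 Plac8-high cells carried, and no barcode was chosen in both. The doublet caller Scrublet marked 0 cells, so it had not worked and doublets remain.

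Against the label of monocytes, the data gave a mixed answer. Of 25 classical monocyte genes, 22 were higher than in the other phagocytes in both libraries and 14 were at least 2-fold higher in both, and the list's median log2 ratio was 1.40 in the iron-positive and 1.45 in the iron-negative library. Of 7557 genes tested (at least 10 CPM in either cell set in both libraries), 2.78% were at least 2-fold higher in both and 3.89% at least 2-fold lower in both, and the median log2 ratio was -0.07 in each library. In the iron-positive library alone the shares were 4.04% higher and 6.43% lower at 2-fold, and in the iron-negative library alone 3.73% higher and 5.2% lower. At any size, 33.6% of the genes were higher in both libraries, 47.1% lower in both and 19.3% opposite. Of 20 macrophage genes, 16 were lower in both libraries and 7 at least 2-fold lower in both, with medians of -1.55 (iron-positive) and -0.83 (iron-negative). The macrophage genes were still abundant, with a summed 12024 CPM (iron-positive) and 17707 CPM (iron-negative) in the Ly6c2 Plac8-high cells, against 28810 CPM (iron-positive) and 32452 CPM (iron-negative) in the other phagocytes. Since the cells were chosen from the same counts, all differences from the other phagocytes are a description.

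**Figure D1:**
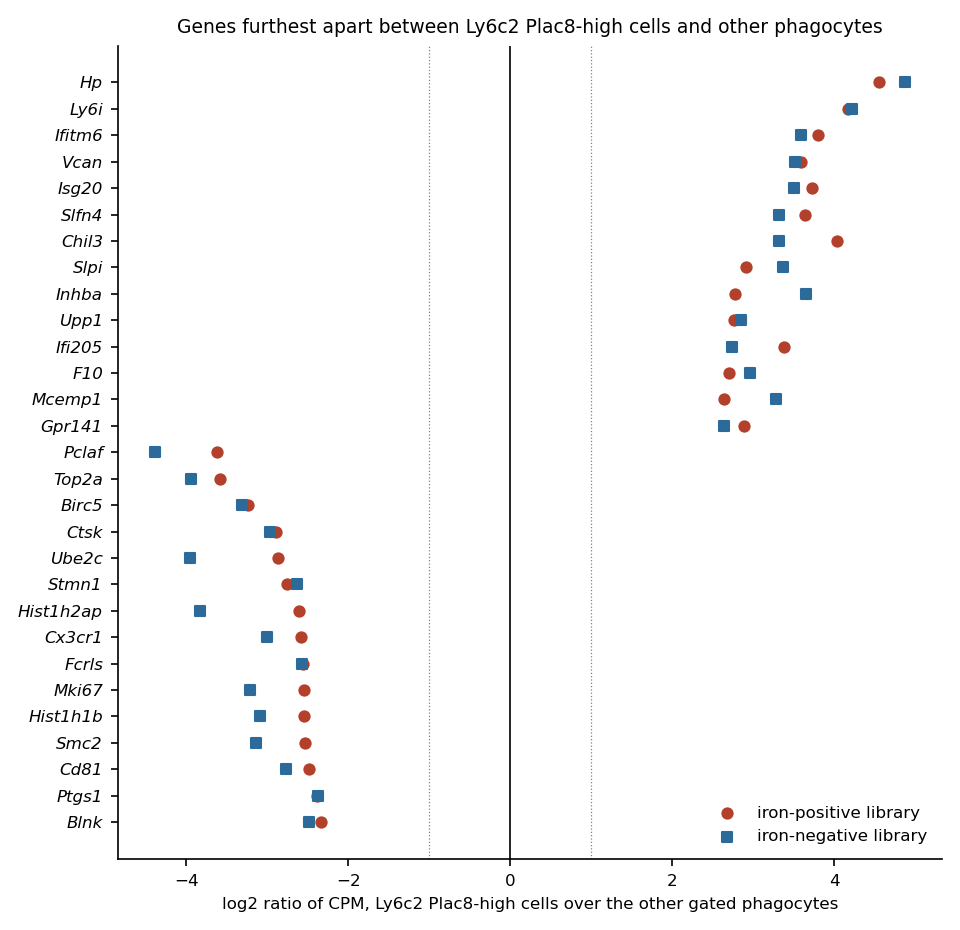
Log2 ratio of CPM of the Ly6c2 Plac8-high cells over the other gated phagocytes (x axis) for the genes furthest apart in each direction that are reported here (y axis), in the iron-positive library (circles) and the iron-negative library (squares), with dotted lines at 2-fold. Of the genes plotted, Hp stands furthest to the right, with ratios of 4.55 in the iron-positive and 4.87 in the iron-negative library, and the lower genes are mostly genes of cell division.

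The genes furthest above the other phagocytes included blood monocyte genes. Hp, which encodes haptoglobin, the plasma protein that binds free hemoglobin, had 98.4 CPM in the iron-positive and 65.4 CPM in the iron-negative Ly6c2 Plac8-high cells, against 4.20 CPM in the iron-positive and 2.24 CPM in the iron-negative other phagocytes. That was 23.5-fold higher in the iron-positive library and 29.1-fold higher in the iron-negative library. The cell sets stood far apart for Hp in both libraries. Chil3, a chitinase-like secreted protein, had 379.9 CPM in the iron-positive and 202.6 CPM in the iron-negative Ly6c2 Plac8-high cells, against 23.1 and 20.3 CPM in the other phagocytes of the iron-positive and the iron-negative library. Vcan, the matrix proteoglycan versican, was 12.1-fold higher in the iron-positive and 11.5-fold higher in the iron-negative library. Not all 3 genes were limited to phagocytes. In the collagen cells and the pericytes of the iron-positive library, Vcan had 371 and 54.5 CPM, Hp 47.5 and 19.1 CPM, and Chil3 0.42 and 1.65 CPM.

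Hp and Chil3 were each detected in a minority of the Ly6c2 Plac8-high cells. After each cell was thinned to 3000 UMIs, Hp was detected in 21.7% of the iron-positive and 8.38% of the iron-negative Ly6c2 Plac8-high cells, against 1.30% and 0.621% of the other phagocytes of the iron-positive and the iron-negative library. Unthinned, the shares were 29.2% (iron-positive) and 18.8% (iron-negative) in the Ly6c2 Plac8-high cells, against 3.60% (iron-positive) and 2.40% (iron-negative) in the other phagocytes. Chil3 was detected after thinning in 30.8% of the iron-positive and 24.4% of the iron-negative Ly6c2 Plac8-high cells, against 4.14% (iron-positive) and 3.92% (iron-negative) of the other phagocytes. Unthinned, its shares were 44.0% (iron-positive) and 39.3% (iron-negative), against 8.55% (iron-positive) and 10.2% (iron-negative) in the other phagocytes. Ccr2 was broader: thinned, it was detected in 53.9% (iron-positive) and 56.3% (iron-negative) of them, against 16.8% (iron-positive) and 25.3% (iron-negative) of the other phagocytes. Its level was 373.5 CPM in the iron-positive and 397.7 CPM in the iron-negative Ly6c2 Plac8-high cells, against 94.8 CPM in the iron-positive and 146.1 CPM in the iron-negative other phagocytes.

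The other genes among the 15 highest had varied roles. Ly6i, a neighbour of Ly6c2 in the same gene family, had 484.8 CPM (iron-positive) and 396.9 CPM (iron-negative), against 26.9 CPM (iron-positive) and 21.3 CPM (iron-negative) in the other phagocytes. No window of 90 bases near the Ly6c2 transcript end occurred in Ly6i transcripts. Inhba, which encodes a subunit of activin, had 311.7 CPM in the iron-positive and 218.9 CPM in the iron-negative Ly6c2 Plac8-high cells, against 45.6 and 17.5 CPM in the other phagocytes of the iron-positive and the iron-negative library. Slfn4, Ifi205 and Ifitm6, members of the Schlafen, Ifi200 and Ifitm families, were 12.5-fold, 10.4-fold and 13.8-fold higher in the iron-positive library and 9.96-fold, 6.65-fold and 12.1-fold higher in the iron-negative library. These families hold near copies, and their counts may be split between them. F10, the gene of coagulation factor X, was 6.49-fold higher in the iron-positive and 7.76-fold higher in the iron-negative library, and the exonuclease gene Isg20, the protease inhibitor gene Slpi, the uridine phosphorylase gene Upp1, Mcemp1 and Gpr141 were also among the 15.

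Type I interferon targets were higher as a group. All 15 measured genes of the list were higher in both libraries and 13 were at least 2-fold higher in both, with medians of 1.70 (iron-positive) and 1.49 (iron-negative) on the log2 scale. Over all genes, 33.6% were higher in both and 2.78% at least 2-fold higher in both. Isg15, a ubiquitin-like modifier, had 850.1 CPM (iron-positive) and 694.2 CPM (iron-negative), against 133.3 CPM (iron-positive) and 125.8 CPM (iron-negative) in the other phagocytes. Slfn1 and Ifit1 were higher by 2.62 and 2.16 in the iron-positive library and by 2.25 and 1.96 in the iron-negative library on the log2 scale, whereas Bst2 differed by 0.18 and 0.09. Mx1 was not analysed here.

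Cytokine genes were also higher. Of 12 measured cytokine and effector genes, 10 were higher in both libraries and 5 at least 2-fold higher in both, beside 33.6% and 2.78% of all genes. Il1b, the inflammatory cytokine interleukin 1 beta, had 2939 CPM in the iron-positive and 2989 CPM in the iron-negative Ly6c2 Plac8-high cells, against 491.5 CPM in the iron-positive and 539.7 CPM in the iron-negative other phagocytes. Ptgs2, the inducible cyclooxygenase, was higher by 1.58 (iron-positive) and 1.71 (iron-negative) on the log2 scale, and Nos2, the inducible nitric oxide synthase, by 1.26 (iron-positive) and 2.13 (iron-negative). Arg1, which breaks down arginine, stood at -0.45 in the iron-positive and 0.43 in the iron-negative library, opposite ways. Of 13 measured antimicrobial and alarmin genes, 9 were higher in both libraries, beside 33.6% of all genes, with S100a6 at 1.54 (iron-positive) and 1.84 (iron-negative). All 8 measured MHC class II genes, which present antigen to helper T cells, were higher in both libraries, beside 33.6% of all genes. None of the 8 reached 2-fold in both, and their medians were 0.49 (iron-positive) and 0.29 (iron-negative).

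Cell division genes were low. All 15 genes of the list were lower in both libraries and 14 were at least 2-fold lower in both, with medians of -2.55 (iron-positive) and -2.63 (iron-negative). Only 5 of the 15 had at least 10 CPM in the Ly6c2 Plac8-high cells of either library. The rest passed the 10 CPM minimum through the other phagocytes alone, so the number of lower genes is no evidence. Over all genes, 47.1% were lower in both and 3.89% at least 2-fold lower in both. Top2a, the topoisomerase of dividing cells, had 9.95 CPM in the iron-positive and 8.31 CPM in the iron-negative Ly6c2 Plac8-high cells, against 121.3 CPM in the iron-positive and 130.1 CPM in the iron-negative other phagocytes. Mki67, the gene of the proliferation marker Ki-67, was 5.85-fold lower in the iron-positive and 9.26-fold lower in the iron-negative library. Pclaf, Birc5, Ube2c, Stmn1, Smc2 and the histone genes Hist1h2ap and Hist1h1b were also among the 15 lowest, and histone RNAs come from many near copies. The part of the depth gap in these values was not tested beyond thinning: thinned, Top2a was detected in 1.9% (iron-positive) and 1.5% (iron-negative) of the Ly6c2 Plac8-high cells, against 11.3% (iron-positive) and 12.7% (iron-negative) of the other phagocytes.

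Several of the remaining low genes are known from tissue macrophages. Cx3cr1, the receptor of fractalkine, had 25.2 CPM (iron-positive) and 34.4 CPM (iron-negative), against 152.6 CPM (iron-positive) and 277.2 CPM (iron-negative) in the other phagocytes. The Fc receptor-like gene Fcrls was 5.91-fold lower in the iron-positive and 5.95-fold lower in the iron-negative library, and the tetraspanin gene Cd81 5.59-fold and 6.79-fold lower. Ctsk, Ptgs1 and Blnk completed the 15, with log2 ratios between -2.34 and -2.96 in both libraries. C1qa, a chain of complement C1q, had 1335 CPM in the iron-positive and 1992 CPM in the iron-negative Ly6c2 Plac8-high cells, against 3901 CPM in the iron-positive and 4798 CPM in the iron-negative other phagocytes. Of 14 lysosomal genes, 11 were lower in both libraries, beside 47.1% of all genes, with the cathepsin D gene Ctsd at -1.65 (iron-positive) and -0.72 (iron-negative).

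**Figure D2:**
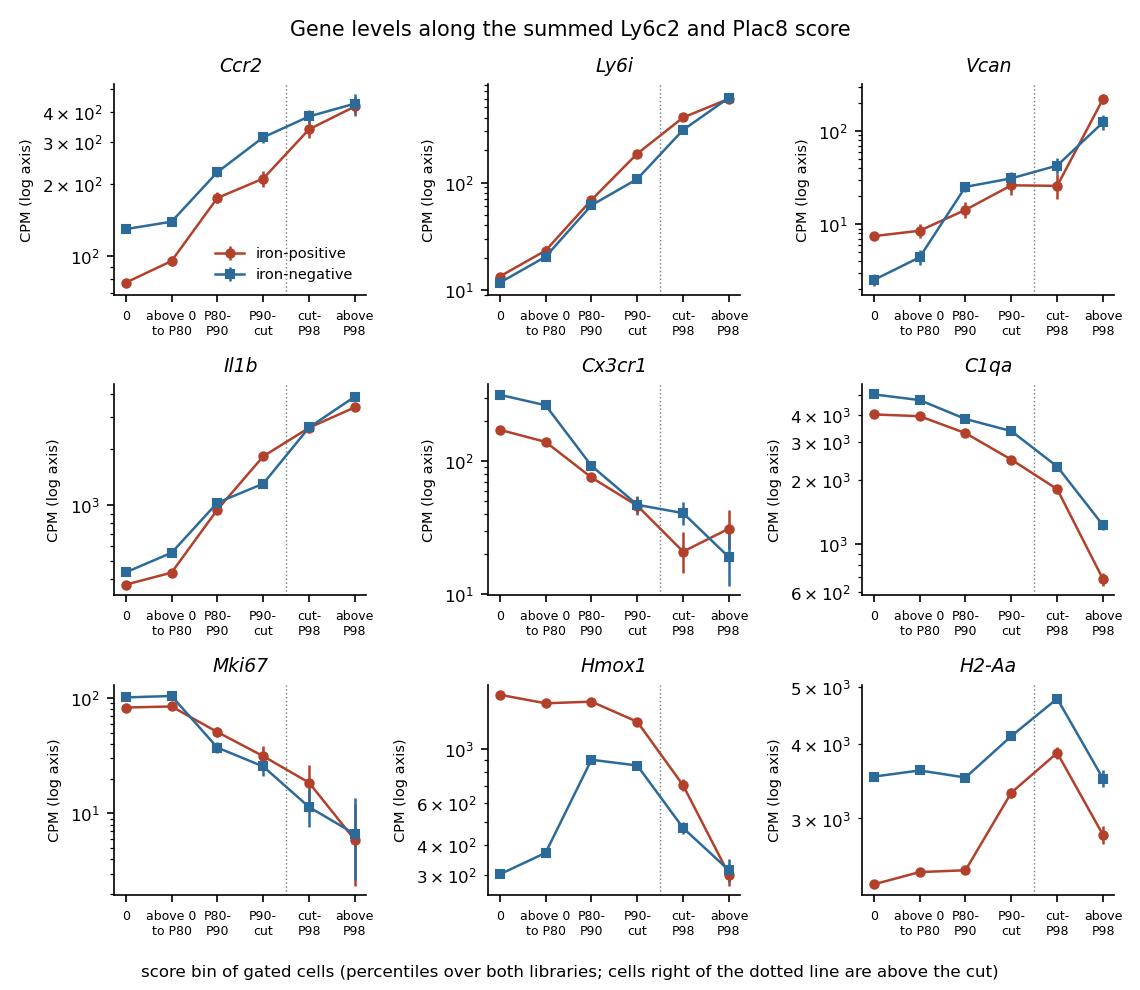
CPM on a log axis (y) of 9 genes in 6 bins of the Ly6c2 and Plac8 score (x), in the iron-positive library (circles) and the iron-negative library (squares), with exact 95% Poisson intervals and P80, P90 and P98 as percentiles over both libraries. Ccr2, Ly6i and Il1b climb and C1qa and Mki67 decline along the score, while Hmox1 starts at 1680 and 302 CPM in the lowest bins of the iron-positive and the iron-negative library and ends at 301 and 314 CPM.

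Some of the genes plotted along the score already changed in level below the cut. From a score of 0 to the bin above the 98th percentile, Ccr2 had 77.3, 95.2, 174.8, 211, 338 and 422 CPM in the 6 iron-positive bins and 129, 139, 224, 313, 383 and 433 CPM in the 6 iron-negative bins. C1qa had 4042 CPM in the lowest and 686 CPM in the highest iron-positive bin, and 5017 CPM in the lowest and 1227 CPM in the highest iron-negative bin. Vcan did not climb evenly: in the iron-positive library it had 26.2 CPM just below the cut, 25.8 CPM just above it and 221 CPM in the highest bin. H2-Aa, an MHC class II chain, was highest in the bin just above the cut in both libraries, at 3868 CPM (iron-positive) and 4773 CPM (iron-negative). Median UMIs per cell also went down along the bins from the second, to 6108.5 (iron-positive) and 8401 (iron-negative) in the highest.

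Over single cells thinned to 3000 UMIs, the genes whose pattern was most like the score were Ly6i, Ifitm3, Ifi27l2a, Il1b, Ms4a4c, Tmsb10, Isg15, S100a6, S100a11 and Ifi205. Pearson's correlation for Ly6i was 0.43 over 7040 iron-positive cells and 0.36 over 8279 iron-negative cells. At the other end stood C1qa (-0.33 in the iron-positive and -0.39 in the iron-negative cells), C1qc, Apoe, Cd63, Rplp1, C1qb, Ms4a7, Pmepa1, Cd81 and Grn. Cells of a library share its depth and free RNA, and the values are a description.

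The Ly6c2 Plac8-high cells were compared with 3 sets of phagocytes chosen in the same way, as the top 5%, and of these overlapped most with the set by Il1r2, Ifitm1 and Ltb4r1. That set shared 199 cells with them, 25.9% of the Ly6c2 Plac8-high cells and 25.98% of the set. The remaining cells of that set had 310.5 CPM (iron-positive) and 293.8 CPM (iron-negative) of Ccr2 and 2193 CPM (iron-positive) and 2325 CPM (iron-negative) of Il1b, and 2275 CPM (iron-positive) and 2833 CPM (iron-negative) of C1qa. With the top 5% by H2-Aa and H2-Eb1 they shared 46 cells (6.00% of the Ly6c2 Plac8-high cells), and with the top 5% by Fcrls and Cx3cr1 they shared 1 cell (0.130%).

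**Figure D3:**
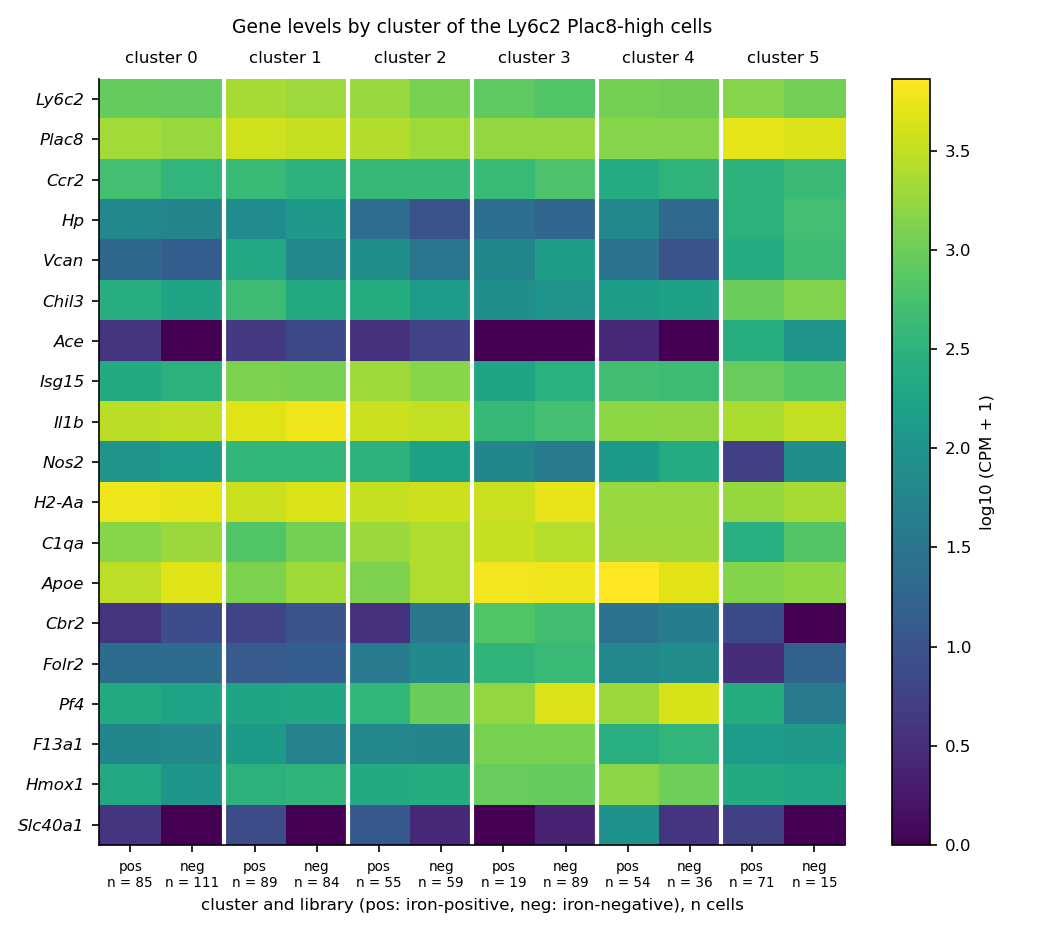
Level as log10 of CPM plus 1 (colour) of 19 genes (rows) in the 6 clusters of Ly6c2 Plac8-high cells, with the iron-positive column left of the iron-negative column in each cluster and the number of cells below. Cluster 5 alone is bright for Ace, cluster 3 for Cbr2, and cluster 4 of the iron-positive library for Slc40a1.

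Clustering the 767 cells without Ly6c2 and Plac8 gave 6 clusters that differed in kind, and no one cell type name covered them. The clusters were built from the genes described here, so their genes are a description and their sizes are not compared between the fractions. Cluster 0, of 85 iron-positive and 111 iron-negative cells, was led by Tmem119, Pmvk and Dpep2. Its H2-Aa stood at 5761 CPM (iron-positive), the highest of the clusters in that library, and at 5228 CPM (iron-negative), where cluster 3 had 5328 CPM. The interferon targets were uneven among the clusters. In cluster 0, 0 of 15 were higher than in the remaining Ly6c2 Plac8-high cells and 12 were at least 2-fold lower. In cluster 2 all 15 were higher. Cluster 1, of 89 iron-positive and 84 iron-negative cells, was led by Pgf, Inhba and Ramp3, and its Il1b reached 4716 CPM (iron-positive) and 5899 CPM (iron-negative). It also held the highest Ly6c2, 2305 CPM in the iron-positive and 1948 CPM in the iron-negative library.

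Cluster 2, of 55 iron-positive and 59 iron-negative cells, was led by interferon targets such as Cmpk2 and Ifit2, with Isg15 at 2040 CPM (iron-positive) and 1512 CPM (iron-negative). Cluster 3, of 19 iron-positive and 89 iron-negative cells, was led by C6, Retnla and Cbr2. Of 20 macrophage genes, 19 were higher there than in the remaining Ly6c2 Plac8-high cells, among them Folr2 and Pf4, and its F13a1 stood at 1206 CPM (iron-positive) and 1194 CPM (iron-negative). Its Ccr2 was 419 CPM (iron-positive), below the 500.5 CPM of cluster 0 in that library, and 597 CPM (iron-negative), the highest of the clusters in that library. Cluster 4, of 54 iron-positive and 36 iron-negative cells, was led by Slc40a1, Gpnmb and Gdf15 and had the highest Hmox1, 1544 CPM (iron-positive) and 1021 CPM (iron-negative).

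Cluster 5, of 71 iron-positive and 15 iron-negative cells, had the highest score, with a median of 62.5, and the highest Hp, Vcan and Chil3. Its leading genes were Cd7, the neutrophil genes S100a9 and G0s2, Pglyrp1, Serpinb2 and the nonclassical monocyte genes Ear2, Ace, Adgre4, Spn and Treml4. All 12 nonclassical monocyte genes were higher than in the remaining Ly6c2 Plac8-high cells, 10 of them at least 2-fold. Ear2, Ace, Adgre4, Spn and Treml4 had at most 4.63 CPM in those remaining cells. They passed the 10 CPM minimum through this cluster, so the number is no evidence. All 7 plasmacytoid dendritic cell, 6 neutrophil and 3 erythroid genes measured were also higher, and 0 of 20 macrophage genes. In each of clusters 0 to 4 only 1 plasmacytoid dendritic cell gene and no erythroid gene was measured. Most of the 7 and all 3 thus passed the 10 CPM minimum through cluster 5. The neutrophil gene S100a9 had 0.17 CPM in the remaining cells, and these numbers are no evidence either. Among the 86 cells, 66 carried at least 3 nonclassical monocyte markers and 52 at least 4, while 3 carried at least 3 markers of plasmacytoid dendritic cells, and 2 at least 3 neutrophil markers. At least 3 nonclassical monocyte markers were also found in 3684 of 6667 iron-positive and 6046 of 7885 iron-negative other phagocytes. The count at 3 markers therefore does not mark the cluster. Since it was mostly of 1 library, a cell type and a trait of that library cannot be told apart, and it was given no cell type name.

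Genes of the nonclassical monocyte were higher in the iron-positive Ly6c2 Plac8-high cells. Ace, the angiotensin-converting enzyme, had 44.4 CPM (125 UMIs) in the iron-positive and 5.54 CPM (20 UMIs) in the iron-negative Ly6c2 Plac8-high cells, a log2 ratio of 2.97 (2.31 to 3.76). In the other phagocytes it had 1.21 CPM (iron-positive) and 0.25 CPM (iron-negative). Spn, the gene of CD43, had 29.5 CPM (iron-positive) and 4.43 CPM (iron-negative), a log2 ratio of 2.70 (1.95 to 3.61), against -0.38 in the other phagocytes. Ear2, Treml4 and Adgre4 had ratios of 4.12 (2.69 to 6.66), 1.90 (1.17 to 2.73) and 1.61 (0.92 to 2.38). Most of these passed the 10 CPM minimum through the iron-positive library alone, so their number is no evidence.

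Nr4a1 and Cx3cr1 did not follow them, with log2 ratios of 0.04 and -0.44 between the iron-positive and the iron-negative Ly6c2 Plac8-high cells. At least 2 of Ace, Spn, Ear2, Treml4 and Adgre4, a rule made after these values were seen, were found after thinning in 6.97% of the Ly6c2 Plac8-high cells in the iron-positive library (interval 4.60 to 10.0%) and 0.761% in the iron-negative library (interval 0.157 to 2.21%), and unthinned in 9.38% of the iron-positive and 2.28% of the iron-negative ones. In the other phagocytes the shares were 0.105% (iron-positive) and 0.114% (iron-negative) thinned, and 1.59% (iron-positive) and 2.38% (iron-negative) unthinned. The 35 iron-positive cells of the unthinned rule held 36 UMIs of Slc40a1 (147 CPM) and 1376 CPM of Hmox1. The 9 iron-negative cells had 0 CPM of Slc40a1 and 236 CPM of Hmox1. Of 64 Slc40a1 UMIs in all iron-positive Ly6c2 Plac8-high cells, most lay in the cluster led by Slc40a1, Gpnmb and Gdf15. The 25 iron-positive cells with at least 2 of Cbr2, Folr2 and Cd163, unthinned, held 39 of them and 1529 CPM of Hmox1. Some of these UMIs therefore lay in cells that met both rules. The values do not mark the rule of Ace, Spn, Ear2, Treml4 and Adgre4 alone.

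Between the fractions, 78 of 7398 genes (1.05%) were at least 2-fold higher and 51 (0.689%) at least 2-fold lower in the iron-positive than in the iron-negative Ly6c2 Plac8-high cells. In the other phagocytes the same counts were 97 (1.25%) higher and 3 (0.0388%) lower of 7734 genes. Among the other phagocytes, 25.4% of the genes had a ratio above 1 and 74.6% one below 1 at any size. The sums of the Ly6c2 Plac8-high cells were far smaller and gave ratios with more counting error.

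**Figure D4:**
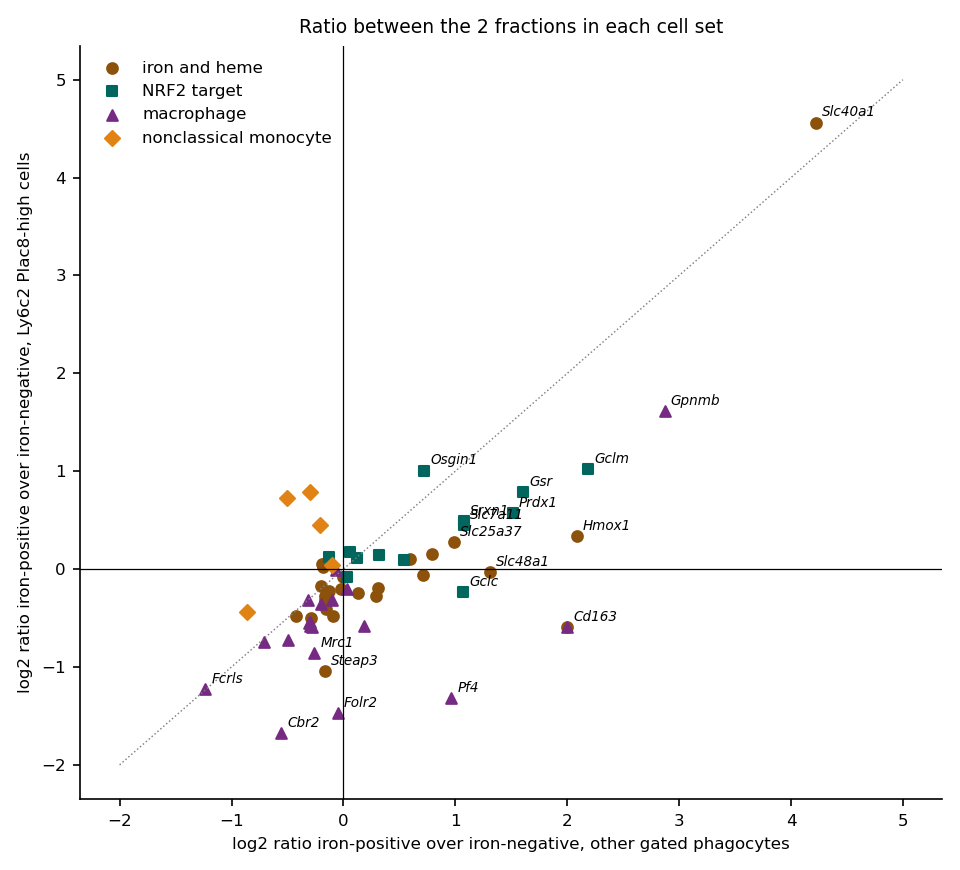
Log2 ratio of CPM in the iron-positive over the iron-negative library, in the Ly6c2 Plac8-high cells (y axis) and in the other gated phagocytes (x axis), for genes of 4 lists with at least 10 CPM in either library in both cell sets, with equality dotted. Hmox1 stands at 0.34 and 2.08 and Pf4 at -1.32 and 0.96 on the y and x axes, both below the line of equality.

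Several iron and oxidative stress genes had smaller ratios between the fractions in the Ly6c2 Plac8-high cells than in the other phagocytes, while Slc40a1 did not, and no test of the difference was run. Hmox1, the heme oxygenase that frees iron from heme, had 535.6 CPM in the iron-positive and 424.6 CPM in the iron-negative Ly6c2 Plac8-high cells, against 1631 CPM in the iron-positive and 384.8 CPM in the iron-negative other phagocytes. Its log2 ratio between the fractions was 0.34 (0.23 to 0.44) in the Ly6c2 Plac8-high cells and 2.08 in the other phagocytes, and the first of these changed sign in 3 of 18 alternatives, with a lowest value of -0.39 without the cells of the highest doublet scores. Between score bins Hmox1 was not even: the iron-negative library had 302, 371, 903, 854, 470 and 314 CPM from the lowest to the highest bin. The ferritin genes Fth1 and Ftl1, which encode the iron storage shell, had ratios of 0.10 and -0.06 in the Ly6c2 Plac8-high cells and of 0.59 and 0.71 in the other phagocytes. Both ferritin genes have many pseudogene copies, and neither direction in the Ly6c2 Plac8-high cells held under every alternative.

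Slc40a1, the gene of the iron exporter ferroportin, had 22.7 CPM (64 UMIs) in the iron-positive and 0.831 CPM (3 UMIs) in the iron-negative Ly6c2 Plac8-high cells, against 106.0 CPM in the iron-positive and 5.68 CPM in the iron-negative other phagocytes. The ratio between the fractions was 23.6-fold from these counts, with a log2 interval of 3.16 to 7.09, and 18.6-fold in the other phagocytes. Per cell, the iron-positive Ly6c2 Plac8-high cells had 0.172 UMIs, and endothelial cells of that library had 0.112 UMIs, at median depths of 6611 and 16433.5 UMIs. A UMI was found in 4.56% of the iron-positive Ly6c2 Plac8-high cells and in 8.22% of these endothelial cells. The UMIs were unevenly spread: of the 64 in the iron-positive Ly6c2 Plac8-high cells, 52 lay in the 54 cells of cluster 4 (91.2 CPM), against 1 UMI in the 36 iron-negative cells of that cluster (2.86 CPM). The 304 endothelial cells held 34 UMIs. Beside the other phagocytes, 5 of the 25 measured iron and heme genes were higher in both libraries and 14 lower in both, where 33.6% of all genes were higher and 47.1% lower in both. Of the 25, 1 was at least 2-fold lower in both, beside 3.89% of all genes. Over the 25 measured iron and heme genes the median log2 ratio between the fractions was -0.19 in the Ly6c2 Plac8-high cells and, over 26 measured genes, -0.05 in the other phagocytes.

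Targets of NRF2, the factor that switches on antioxidant genes, had a smaller median ratio in the Ly6c2 Plac8-high cells. The 13 measured genes had a median log2 ratio between the fractions of 0.18 in the Ly6c2 Plac8-high cells and 0.72 in the other phagocytes, where the medians over all genes were -0.06 and -0.10. Gclm, a subunit of the glutathione-making enzyme, had 51.2 CPM in the iron-positive and 25.2 CPM in the iron-negative Ly6c2 Plac8-high cells, against 190.3 CPM in the iron-positive and 41.7 CPM in the iron-negative other phagocytes. Mmp12, the macrophage elastase, had 140.0 CPM in the iron-positive and 70.1 CPM in the iron-negative Ly6c2 Plac8-high cells, against 678.2 CPM in the iron-positive and 51.2 CPM in the iron-negative other phagocytes, where it was 13.3-fold higher in the iron-positive library. Of 80 genes at least 2-fold higher in the iron-positive other phagocytes and measured in both cell sets, 63 were also higher in the iron-positive Ly6c2 Plac8-high cells and 28 by at least 2-fold. Their median log2 ratio was 0.58 in the Ly6c2 Plac8-high cells and 1.57 in the other phagocytes, which chose them.

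Among the remaining higher genes, Sparc, a matrix protein of stromal cells, came first with 55.8 CPM (157 UMIs) in the iron-positive and 4.43 CPM (16 UMIs) in the iron-negative Ly6c2 Plac8-high cells, a log2 ratio of 3.61 (2.91 to 4.50). It had a like ratio, 2.79, in the other phagocytes, and reached 7101 CPM in collagen cells of the iron-positive library. The summed mesenchymal markers were 118 CPM in the iron-positive and 23.3 CPM in the iron-negative Ly6c2 Plac8-high cells, and 105 CPM (iron-positive) and 23.8 CPM (iron-negative) in the other phagocytes. Their part in the Sparc value was not tested beyond the subtraction of 10% free RNA, which left a log2 ratio of 0.36.

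Slpi and S100a8, which act in defence, had ratios of 1.86 (1.70 to 2.03) and 1.93 (1.49 to 2.40) in the Ly6c2 Plac8-high cells and both 2.32 in the other phagocytes. Slpi had 427.2 CPM in the iron-positive and 117.2 CPM in the iron-negative Ly6c2 Plac8-high cells. Summed neutrophil markers, S100a8 among them, were 196 CPM in the iron-positive and 84.0 CPM in the iron-negative Ly6c2 Plac8-high cells, 8 and 7 of the 10 were detected, and Retnlg and Camp were at 0 in both. Chil3 had a ratio of 0.91 (0.77 to 1.04) in the Ly6c2 Plac8-high cells and of 0.19 in the other phagocytes. Spp1, Cd36, Hspa1b, Fyn, Ifitm6 and Ramp3 made up the rest of the 12 named, with ratios between 0.85 and 1.39. Ifitm6, at 0.86, stood at 0.17 without cluster 5.

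Macrophage genes were lower in the iron-positive Ly6c2 Plac8-high cells. Of the 20 genes, 19 were lower and 4 of them at least 2-fold, with a median of -0.58. Of all genes, 60.7% were lower and 39.3% higher at any size, and 0.689% at least 2-fold lower. The 1 higher gene was Gpnmb, at 1.62. In the other phagocytes 15 of the 20 were also lower in the iron-positive library, 1 of them at least 2-fold, with a median of -0.27. There 74.6% of all genes were lower and 0.0388% at least 2-fold lower. Cbr2, a carbonyl reductase, had 36.2 CPM in the iron-positive and 116.1 CPM in the iron-negative Ly6c2 Plac8-high cells, a log2 ratio of -1.67 (-2.01 to -1.36), against -0.56 in the other phagocytes. Folr2, a folate receptor of tissue macrophages, had 40.2 CPM (iron-positive) and 112.0 CPM (iron-negative), a ratio of -1.47 (-1.79 to -1.17), against -0.05 in the other phagocytes. Pf4, platelet factor 4, had 636.9 CPM (iron-positive) and 1586 CPM (iron-negative), a ratio of -1.32 (-1.39 to -1.24), against 0.96 in the other phagocytes.

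These values moved with cluster 3. Without it, Cbr2, Folr2 and Pf4 had ratios of -0.84, -0.41 and -0.52, and F13a1, at -0.86 with it, turned to 0.45. When the cells were chosen by Ly6c2 alone, Pf4 had a ratio of -0.18. Thinned, at least 2 of Cbr2, Folr2 and Cd163 were found in 3.22% of the Ly6c2 Plac8-high cells in the iron-positive library (interval 1.67 to 5.55%) and 11.4% in the iron-negative library (interval 8.45 to 14.98%), and in 10.9% (iron-positive) and 11.4% (iron-negative) of the other phagocytes. Unthinned, the shares were 6.70% and 16.2% in the iron-positive and the iron-negative Ly6c2 Plac8-high cells.

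Chemokine genes lay on both sides of no difference between the fractions. Ccl8, a ligand of monocyte and lymphocyte receptors, had 1514 CPM in the iron-positive and 3021 CPM in the iron-negative Ly6c2 Plac8-high cells, against 3406 CPM (iron-positive) and 3366 CPM (iron-negative) in the other phagocytes. Ccl7, a monocyte attractant, had a ratio of -1.07 (157.1 CPM iron-positive and 329.0 CPM iron-negative) that turned to 0.0132 without cluster 3, while Cxcl9 stood at 0.37, Cxcl10 at 0.26 and Cxcl2 at 0.36. Of the 17 measured chemokine genes, 10 were lower and 7 higher in the iron-positive Ly6c2 Plac8-high cells, close to the 60.7% and 39.3% of all genes. Pltp, Rab3il1, Vcam1, Ntpcr, Selenop and Mrc1 completed the 12 named lower genes, with ratios between -1.02 and -0.86. Without cluster 3, Pltp, Selenop and Mrc1 had ratios of -0.06, -0.04 and -0.12, and with the top 10% of cells Vcam1 had -0.21, Ntpcr -0.35 and Selenop -0.49.

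The lists of the interferon response and of antigen presentation held no gene 2-fold apart between the fractions. Ccr2 had a log2 ratio of -0.09 (-0.21 to 0.03) in the Ly6c2 Plac8-high cells and -0.62 in the other phagocytes. Of 15 interferon genes, 13 were higher in the iron-positive Ly6c2 Plac8-high cells and none at least 2-fold, with a median of 0.26, against 39.3% of all genes higher and a median over all genes of -0.06. Of 8 MHC class II genes, 7 were lower there, beside 60.7% of all genes, with a median of -0.30, and all 8 were lower in the iron-positive other phagocytes, with a median of -0.50.

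Markers of other cell types were found at varied summed levels in the Ly6c2 Plac8-high cells. An alternative left out cells with such markers, among them 53 iron-positive and 36 iron-negative Ly6c2 Plac8-high cells. It gave 226 genes 2-fold higher and 312 lower than in the other phagocytes, beside 210 and 294 with all cells. Between the fractions it gave 66 higher and 74 lower, beside 78 and 51. At least 2 endothelial markers alone were found in 64 iron-positive Ly6c2 Plac8-high cells, so it did not cover every set. The part of each set was not tested. The 14 dendritic cell markers, which monocyte-derived cells share, summed to 1572 CPM (iron-positive) and 1578 CPM (iron-negative), against 1441 CPM (iron-positive) and 1609 CPM (iron-negative) in the other phagocytes, with Xcr1 at 0 in the Ly6c2 Plac8-high cells of both libraries. The 10 T and NK cell markers summed to 6.75 CPM (iron-positive) and 14.1 CPM (iron-negative), against 4.78 CPM (iron-positive) and 5.99 CPM (iron-negative) in the other phagocytes, and at least 2 of them were found in 3 and 2 cells. Of the 8 plasmacytoid dendritic cell markers, none was at 0 in the iron-positive Ly6c2 Plac8-high cells and Siglech, Ly6d, Spib and Klk1 were at 0 in the iron-negative ones, and 6 iron-positive and 4 iron-negative cells held at least 2. The 5 erythroid markers summed to 13.2 CPM (37 UMIs) in the iron-positive Ly6c2 Plac8-high cells, with Alas2 at 0, and at least 2 were found in 1 cell. All 5 were at 0 in the iron-negative ones. In the other phagocytes they summed to 1.77 CPM (iron-positive) and 0.0915 CPM (iron-negative). The 5 B cell markers summed to 51.2 CPM (iron-positive) and 31.3 CPM (iron-negative), against 29.2 CPM (iron-positive) and 46.0 CPM (iron-negative) in the other phagocytes, with Cd79a and Ms4a1 at 0 in the iron-negative cells. The 5 endothelial markers summed to 161 CPM (iron-positive) and 133 CPM (iron-negative), against 71.3 CPM (iron-positive) and 65.4 CPM (iron-negative) in the other phagocytes, with Pecam1 and Flt1, which monocytes also express, at 84.9 and 58.3 CPM in the iron-positive cells and Emcn at 0 in the iron-negative ones.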

How the data were processed

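The deposited files hold raw UMI counts of each gene in each barcode, not normalized. The submitters' processing notes give Cell Ranger 3.1.0 and mm10, the file headers cellranger 5.0.0, and no source used here names the annotation release. The gate and the score were applied to both libraries, UMIs were summed per library and cell set, divided into CPM, and compared as log2 ratios with 0.5 added to each count. Genes needed 10 CPM, calls were made at 2-fold, and no test was run with 1 library per fraction. Named genes were the 15 furthest from the other phagocytes in each direction (by the smaller ratio of the 2 libraries, at 50 CPM) and the 12 furthest between fractions in each direction (50 CPM, 100 UMIs), without mitochondrial, ribosomal and numbered genes. Some genes that met these rules are not reported here. Clusters used scanpy 1.11.5 and Leiden at resolution 0.5. Total UMIs were 129921053 in the iron-positive and 132796517 in the iron-negative library. The ratio code was tested on simulated data. The cells and lists were chosen with earlier results of these data known. Matching by Ensembl ID to GENCODE covered 99.8% of 32285 genes.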

Additional observations from a re-analysis of the deposited data

Results flagged for a closer look

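Of 2706 genes looked at, 4 differed between the fractions by at least 1.5-fold in opposite directions in the Ly6c2 Plac8-high cells and in the other gated phagocytes. The difference was not tested, since each fraction has 1 library. Pf4 had a log2 ratio of iron-positive over iron-negative of -1.32 in the Ly6c2 Plac8-high cells and 0.96 in the other phagocytes. F13a1, the A subunit of coagulation factor XIII, had -0.86 in the Ly6c2 Plac8-high cells and 1.13 in the other phagocytes. Saa3, an acute phase protein gene, had -0.82 in the Ly6c2 Plac8-high cells and 1.43 in the other phagocytes. Ccl6, a CC chemokine gene, had -0.64 in the Ly6c2 Plac8-high cells and 1.07 in the other phagocytes. All 4 values rest on the 373 iron-positive and 394 iron-negative Ly6c2 Plac8-high cells, of which 19 and 89 lay in the cluster led by C6, Retnla and Cbr2. Saa3 had 1240 CPM in the 19 iron-positive and 1419 CPM in the 89 iron-negative cells of that cluster, whose part in the Saa3 and Ccl6 values was not tested.

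Barcodes outside the gate also reached the score cut. With fewer than 3 of the 4 phagocyte genes, 62 iron-positive and 25 iron-negative barcodes did so. Of these, 8 iron-positive and 6 iron-negative barcodes carried at least 2 T and NK cell markers, and 9 iron-positive and 1 iron-negative barcode at least 2 markers of plasmacytoid dendritic cells. A further 198 iron-positive and 61 iron-negative barcodes at or above the cut had under 3000 UMIs.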

How the results depend on the processing

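Of 18 alternatives, 15 were planned and 3 (without cluster 3, called here the Cbr2 cluster, without cluster 5, called the Ace cluster, and without shared barcodes) after seeing the data. All 60 ratios of the named genes over the other phagocytes kept their sign in every alternative that applies to them, and 24 of 31 ratios between the fractions did; the exceptions were Ccl7, F13a1, Hmox1, Fth1, Ftl1, Ccr2 and Cd163. Ccl7 turned to 0.0132 without the Cbr2 cluster. The ratio of shares, 1.11, moved to 1.42 (top 3%), 0.961 (top 10%), 1.36 (without the Cbr2 cluster) and 0.9371 (without the Ace cluster). Of the genes 2-fold higher than in the other phagocytes, 210 became 130 with a minimum of 50 CPM and 5818 with none; the 294 lower became 152 (top 10%), 191 (thinned to 3000 UMIs), 78 (50 CPM) and 838 (no minimum). Between the fractions, 78 higher became 128 (top 3%), 51 (top 10%), 121 (thinned), 8 (50 CPM) and 1977 (no minimum). The 51 lower became 121 (top 3%), 9 (top 10%), 170 (thinned), 84 (without the highest doublet scores), 89 (10% free RNA subtracted), 6 (50 CPM) and 1453 (no minimum). With no minimum, genes of a few UMIs pass 2-fold through the added 0.5. Thinning kept tied scores and chose 449 iron-positive and 521 iron-negative cells, of which 349 and 367 were among those reported. The cause of the other moves was not tested. No paired analysis was possible because each fraction has 1 library. The sums of the Ly6c2 Plac8-high cells, 2813629 and 3608373 UMIs in the iron-positive and the iron-negative library, limit the precision for genes of few UMIs.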

Other observations

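Transcription factor genes were more often higher than lower, mostly by less than 2-fold. Of 22 measured, 15 were higher and 4 lower in the Ly6c2 Plac8-high cells than in the other phagocytes in both libraries. Of all genes, 33.6% were higher and 47.1% lower in both. In each direction 1 passed 2-fold in both libraries, beside 2.78% of all genes higher and 3.89% lower. Irf7, which drives interferon genes, was higher by 1.71 (iron-positive) and 1.63 (iron-negative), and Cebpa, a factor of myeloid precursors, stood at -1.13 (iron-positive) and -1.11 (iron-negative). Spi1, which encodes PU.1, had 420.1 CPM in the iron-positive and 412.7 CPM in the iron-negative Ly6c2 Plac8-high cells, against 316.8 CPM in the iron-positive and 363.3 CPM in the iron-negative other phagocytes. Among 16 measured growth factor and cytokine receptors, Il1r2, the decoy receptor of interleukin 1, was furthest above the other phagocytes, by 2.47 (iron-positive) and 2.16 (iron-negative), and Tgfbr2, a receptor of TGF-beta, stood at -1.35 (iron-positive) and -1.10 (iron-negative).

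Of 15 measured glycolysis and hypoxia genes, 14 were lower in the iron-positive than in the iron-negative Ly6c2 Plac8-high cells, with a median log2 ratio of -0.20, beside 60.7% of all genes lower. In the other phagocytes 15 of 16 were higher in the iron-positive library, with a median of 0.33, beside 25.4% of all genes higher. Ndrg1, a hypoxia-induced gene, had 167.4 CPM in the iron-positive and 186.2 CPM in the iron-negative Ly6c2 Plac8-high cells, against 88.8 CPM in the iron-positive and 53.9 CPM in the iron-negative other phagocytes. None of the 15 passed 2-fold between the fractions in the Ly6c2 Plac8-high cells.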
